A study of Mus musculus with 9 samples.

Results

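Effector cytokines are the secreted proteins by which helper T cells instruct other cells. The 10 cytokine genes described here are Il2, Il3, Il4, Il10, Il13, Il17a, Il17f, Il21, Il22 and Ifng, chosen by name and read from 10 of the 25759 gene rows of a table of RNA sequencing values. The table has 9 libraries of mouse CD4+ T cells in 3 groups of 3. All mice are labelled C57BL/6, were 8 to 12 weeks old and carried a Foxp3GFP reporter transgene, which marks regulatory T cells. The naive wild-type (WT) libraries came from cells of lymph node and spleen sorted as CD4+CD44-CD62+Foxp3GFP- with no treatment. For the activated WT libraries, mixed lymph node and spleen cells were cultured for 3 days with 2 ug/ml ConA, a plant lectin that stimulates T cells, and 10 ng/ml LPS, and CD4+CD44+CD62L-Foxp3GFP- cells were then sorted. The activated knockout libraries were made in the same way from mice labelled BMPR1a/CD4cre, a conditional knockout of the bone morphogenetic protein receptor BMPR1a. The Cd4 promoter that drives such a Cre is active in developing thymocytes, so it acts before the CD4+ and CD8+ lineages part. Naive and activated cells differ in culture, in stimulation and in the sort, which cannot be told apart. Whether the 3 libraries of a group stem from different mice or cultures is not stated in the labels. The p-values therefore cover the spread among libraries only, which may be technical.

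Naive helper T cells make few cytokines. Once the T cell receptor is engaged, they differentiate towards states that are named for their products. Th1 cells make interferon-gamma (Ifng) under the transcription factor T-bet (Tbx21), Th2 cells make interleukins 4 and 13 under GATA3, and Th17 cells make interleukins 17A, 17F and often 22. Interleukin-2 is the T cell growth factor and interleukin-21 helps B cells, while interleukin-10 restrains immune responses. Cytokine transcripts are short-lived, and most are made in bursts after the receptor is engaged again. Here the cells were sorted at the end of the culture, and the labels name no second stimulation before the sort.

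The 4 genes whose knockout libraries differed most in level from the activated WT libraries were Il17a, Il17f, Il22 and Ifng, and the sequence before their RefSeq start site is shown for that reason. The sequences are from RefSeq on GRCm38.p6, cover the exon-free part of the 250 bases before the start and read 5′ to 3′ on the gene's strand. Capitals mark TATAAA, the letters of a TATA box, chosen for marking after the matches were seen because all 4 windows hold it.
Il17a, chr1:20730655-20730904, plus strand: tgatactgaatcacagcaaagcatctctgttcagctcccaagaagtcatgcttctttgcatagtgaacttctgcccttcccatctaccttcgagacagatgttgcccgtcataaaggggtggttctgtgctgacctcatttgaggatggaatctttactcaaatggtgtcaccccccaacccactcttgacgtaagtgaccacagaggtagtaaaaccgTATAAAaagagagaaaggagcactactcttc
Il17f, chr1:20784271-20784494, minus strand: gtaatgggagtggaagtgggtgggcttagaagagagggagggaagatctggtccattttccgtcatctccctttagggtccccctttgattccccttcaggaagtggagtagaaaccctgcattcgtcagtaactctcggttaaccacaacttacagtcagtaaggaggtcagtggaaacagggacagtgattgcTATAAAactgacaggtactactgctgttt
Il22, chr10:118204714-118204941, plus strand: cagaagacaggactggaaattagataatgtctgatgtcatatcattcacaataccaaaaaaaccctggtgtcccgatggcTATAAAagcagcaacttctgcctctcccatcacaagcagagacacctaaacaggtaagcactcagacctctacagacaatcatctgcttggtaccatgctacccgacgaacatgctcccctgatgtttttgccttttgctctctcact
Ifng, chr10:118440796-118441045, plus strand: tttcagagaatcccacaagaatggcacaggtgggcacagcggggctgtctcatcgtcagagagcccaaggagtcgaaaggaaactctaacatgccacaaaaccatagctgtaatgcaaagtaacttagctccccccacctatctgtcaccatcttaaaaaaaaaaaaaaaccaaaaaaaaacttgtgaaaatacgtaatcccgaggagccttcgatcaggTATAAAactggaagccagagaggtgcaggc
The match begins at position -31 before the start of Il17a, at -29 for Il17f, at -30 for Ifng and at -170 for Il22. The Il22 match thus lies much farther from the RefSeq start than the others. The window of Il17f lies inside the gene span given for it below. On both strands, TATAAA was found in 6 of the 9 members whose windows were at hand (Il2, Il13, Il17a, Il17f, Il22 and Ifng), against 12.3% of 32536 RefSeq promoter windows of the same 250 bases. GGAAA, the core bound by NFAT factors downstream of the T cell receptor, was found in 8 of these 9 members against 55.7% of all windows. The AP-1 motif TGANTCA was found only before Il17a (6.73% of all windows) and the STAT motif TTCNNNGAA only before Ifng (7.04%). The T-box motif GGTGTGA (3.33%) and the SMAD palindrome GTCTAGAC (0.169%) were found in none of the 9. These are matches of letters, and no binding was measured.

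Levels are given in FPKM (fragments for each kilobase of a transcript in 1e6 mapped ones), so that different genes can be compared per length. The depth behind them is unknown. A level of 1 FPKM was reached by 12922 to 13395 genes of a library, and the protein-coding genes summed to 533142 to 595891 FPKM. In each library 1 to 7 protein-coding genes with a mean over 20 FPKM were listed at 0, so a cytokine at 0 is described only as listed at 0. The targeted gene, Bmpr1a, had 0.460, 0.311 and 0.336 FPKM in naive WT, 2.16, 2.92 and 1.40 in activated WT and 0.957, 1.93 and 1.20 in knockout libraries. Its log2 fold change of -0.41 between knockout and activated WT was not called (limma adjusted p = 0.261). A value over the whole gene also counts exons outside a deleted part, so it does not settle the genotype. Markers of CD4+ T cells summed to 4999 to 5873 FPKM in all 9 libraries.

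Cytokine transcripts were scarce in naive cells and remained at modest levels in activated WT cells. The 10 genes together came to 1.80, 2.16 and 2.57 FPKM in the naive WT libraries, to 14.1, 10.1 and 13.2 in the activated WT libraries and to 57.0, 63.7 and 19.6 in the knockout libraries. In the activated WT libraries no member stood above more than 44.1% of the protein-coding genes that were above 0, the value of Il21 in library 3. In knockout library 1, Il17a at 33.5 FPKM stood above 82.2% of them, and in knockout library 2, Ifng at 34.4 FPKM stood above 82.6%. In a sorted bulk sample, a larger share of producing cells and more RNA per producing cell cannot be told apart.

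**Figure D1:**
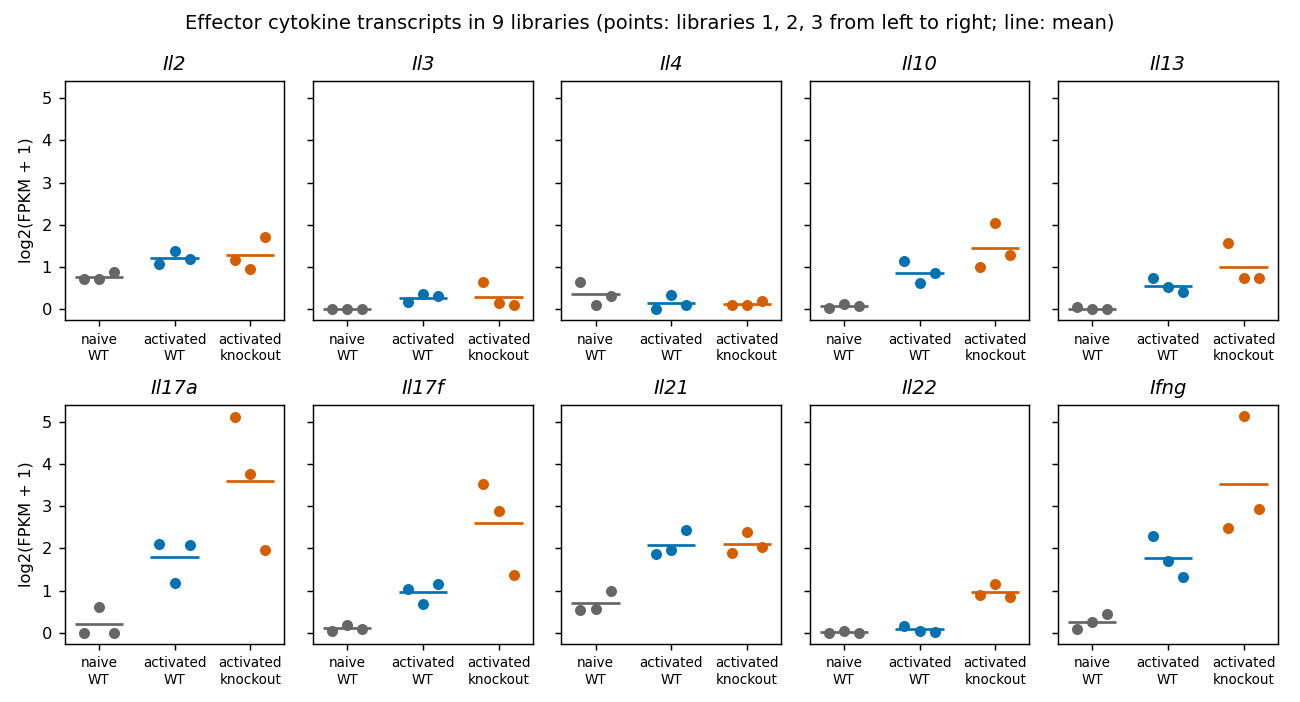
Level of each of the 10 cytokine genes in each library, as log2(FPKM + 1) on a common axis. Points are libraries 1, 2 and 3 of a group from left to right and lines are group means on that scale. Knockout library 1 is highest for Il17a (33.5 FPKM) and knockout library 2 for Ifng (34.4 FPKM), while all 3 knockout libraries of Il22 lie above the 6 others.

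The groups were compared on log2(FPKM + 1) with limma's moderated test in 1 fit of all 9 libraries. Tested were the 15126 genes whose mean over the libraries reached 0.5 FPKM, with 7 of the 10 members among them. Il3, Il4 and Il22 fell below that mean. Members near 0 in naive WT, such as Il13 (naive mean 0.0102 FPKM), reached it through their activated libraries. A rise over naive WT is thus partly built into their being tested. A difference was called where the Benjamini-Hochberg adjusted p, over all genes tested, was under 0.05. Fold changes on this scale understate the change of genes at low levels, which here are most of the members. An exact permutation test of 3 against 3 libraries cannot go below p = 0.1.

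With activation of WT cells, 2 of the 7 tested members rose and none fell: Il21 and Il10. Over all tested genes 26.2% were called higher in that comparison and 25.8% lower. The median log2 fold change of the 7 members was 0.85, against -0.01 over all tested genes. In 8 of the 10 members every activated WT library lay above every naive one, as in 21.9% of the genes above 0 in at least 1 library, and in no member was it the other way round (23.2% of those genes). When only the 6 WT libraries entered the fit, so that they alone set the spread, 7 of 7 were called higher. The share of all genes called in that fit is not given here, so this count has no background beside it. With no filter on low values 1 of 10 was called higher, Il21, against 16.9% of genes.

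Between knockout and activated WT cells, limma called 0 of the 7 tested members in either direction. The background, which also holds for the list counts of this comparison below, was 3.3% of tested genes higher and 0.84% lower. At an unadjusted p under 0.05 it marked 3, namely Il17a, Il17f and Ifng, against 25% of all tested genes in either direction. The median log2 fold change was 0.58 for the 7 members and 0.06 for all tested genes. Il10 and Il13 reached the filter's mean of 0.5 FPKM only through their knockout libraries. Their group means were 0.0574 and 0.0102 FPKM in naive WT, 0.846 and 0.478 in activated WT and 1.86 and 1.09 in the knockout. That median is thus partly built in by the filter. With no filter it was 0.51 for the 10 members, against 0.01 over all genes. Every knockout library lay above every activated WT library in 3 of the 10 members, Il17f, Il22 and Ifng, against 16.6% of the genes above 0 in at least 1 library. Without the filter on low values limma called 1 of 10 members, Il22, against 1.32% of genes called higher.

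Knockout cells against naive WT cells, where genotype and activation differ together, gave 6 of 7 tested members called higher and none lower, against 31.8% and 25.1% of all tested genes. The exception was Il2 (limma adjusted p = 0.0534). This comparison shares its naive libraries with the first and its knockout libraries with the second. The median log2 fold change of the 7 members was 1.41, against 0.04 over all tested genes. With no filter on low values 7 of 10 members were called higher and none lower. Their median was then 1.18, against 0.0013 over all genes. The share of all genes called in that fit is not given here.

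**Figure D2:**
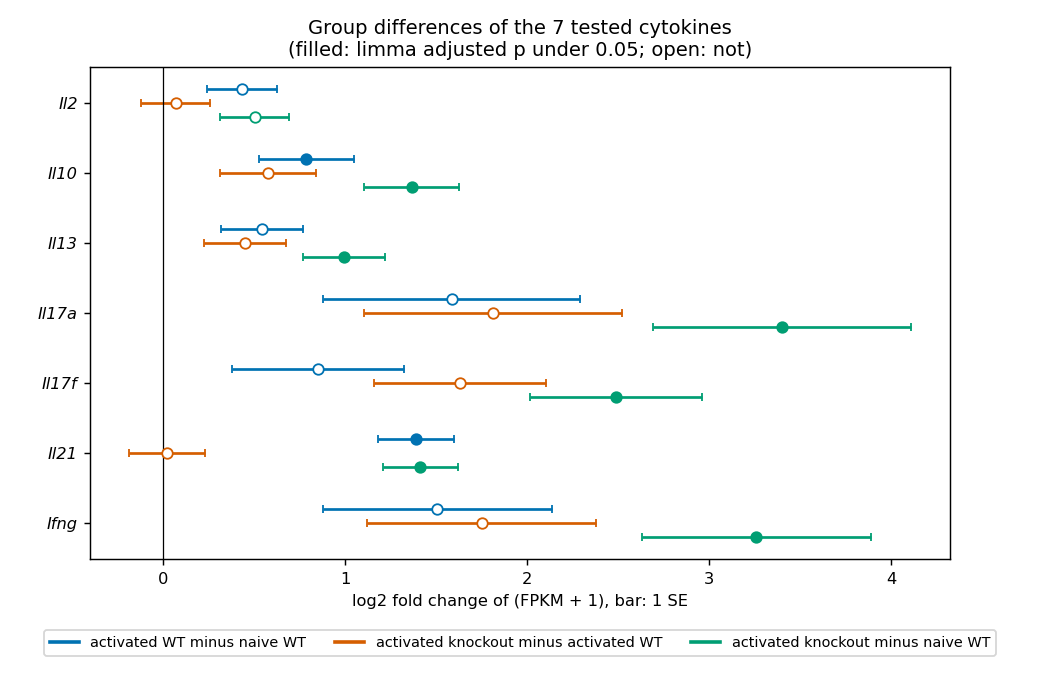
Log2 fold change of (FPKM + 1) with 1 SE for the 7 tested cytokines in the 3 comparisons, from 1 limma fit of 9 libraries. Filled points have an adjusted p under 0.05: Il10 and Il21 for activated against naive WT, none for knockout against activated WT, and all but Il2 for knockout against naive WT.

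Il2 and Il21 encode the growth factor interleukin-2 and the B cell helper cytokine interleukin-21, which both signal through receptors with the common gamma chain. In GRCm38 they lie 96.8 kb apart on the minus strand of chromosome 3, Il2 (ENSMUSG00000027720) at 37120523 to 37125959 and Il21 (ENSMUSG00000027718) at 37222759 to 37232636. Il2 overlaps the end of Adad1 on the other strand, and Il21 overlaps an antisense gene, Gm12534. The strand setting of the counting is not given in the sources used here, so reads of these pairs cannot be told apart.

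Il21 was the member that rose with activation under every alternative tried. It was read at 0.447, 0.473 and 0.995 FPKM in naive WT, at 2.63, 2.88 and 4.43 in activated WT and at 2.74, 4.21 and 3.13 in knockout libraries. Naive and activated libraries did not overlap, while the activated groups did. The naive mean was 0.638 ± 0.309 FPKM and that of activated WT 3.32 ± 0.976 (SD, n = 3). The log2 fold change was 1.39 (SE 0.21, limma adjusted p = 0.000948), and 19 of 19 alternatives called it too. Between knockout and activated WT the difference was 0.02 (SE 0.21, adjusted p = 0.973), and its sign changed with the scaling.

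Il2 changed less. Its naive WT libraries had 0.649, 0.633 and 0.846 FPKM, its activated WT libraries 1.09, 1.59 and 1.27 and its knockout libraries 1.25, 0.934 and 2.25. All activated WT libraries lay above the naive ones, by a log2 fold change of 0.43 (SE 0.19) that did not pass (limma adjusted p = 0.0917). In 3 of 18 alternatives this rise was called (limma adjusted p = 0.0217 to 0.230 over all of them). The knockout libraries spanned the activated WT values on both sides, with a log2 difference of 0.07 (adjusted p = 0.873). Il2 made up 29.2 to 36.1% of the summed cytokine FPKM in naive libraries, more than any other member in libraries 1 and 2, and 7.69 to 15.7% in activated WT libraries. Il21 had more FPKM than Il2 in all 6 activated libraries, by a ratio of 1.39 to 4.50.

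Of the 3 receptor chain genes of interleukin-2, Il2ra and Il2rb rose with activation. Il2ra, the alpha chain that gives the receptor high affinity, was at 1.68, 1.79 and 2.05 FPKM in naive WT, at 73.3, 56.4 and 44.2 in activated WT and at 57.7, 173 and 71.7 in knockout libraries. It rose with activation by a log2 fold change of 4.35 (SE 0.38, limma adjusted p = 7.6e-05). The beta chain gene Il2rb rose from 15.6 ± 2.90 to 292 ± 31.5 FPKM (SD, n = 3; log2 fold change 4.15). The gene of the common gamma chain, Il2rg, was at 384 ± 3.01 FPKM in naive WT and 411 ± 37.6 in activated WT (log2 fold change 0.10, limma adjusted p = 0.313). The gene of the interleukin-21 receptor, Il21r, fell from 97.5 ± 6.84 to 70.1 ± 5.30 FPKM (log2 fold change -0.47, limma adjusted p = 0.0057). None of these 4 genes was called between knockout and activated WT. Knockout library 2 had the highest Il2ra and also the highest Ifng and Il10.

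Ifng (ENSMUSG00000055170) encodes interferon-gamma, the defining Th1 cytokine, which activates macrophages. It lies on the plus strand of chromosome 10 at 118441046 to 118445892. Its naive WT libraries had 0.0610, 0.193 and 0.374 FPKM, its activated WT libraries 3.94, 2.26 and 1.49 and its knockout libraries 4.64, 34.4 and 6.64. Every activated WT library lay above every naive one and every knockout library above every activated WT one. Knockout library 2 stood far above the other two, so the knockout mean of 15.2 ± 16.7 FPKM (SD, n = 3) rests mainly on 1 library. The log2 fold change from naive to activated WT was 1.51 (SE 0.63, limma adjusted p = 0.0773) and that from activated WT to knockout 1.75 (SE 0.63, adjusted p = 0.138), neither of which passed. Without knockout library 2 the latter was 0.94 (adjusted p = 0.180). Over all alternatives the adjusted p of this knockout difference ran from 0.0577 to 0.305. The fit of all 9 libraries takes its spread from the knockout libraries too. In 5 of 19 alternatives the rise with activation was called (limma adjusted p = 0.00357 to 0.206 over all of them).

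The Th1 regulator and targets of interferon-gamma rose with activation of WT cells. Tbx21, the gene of T-bet, rose from 0.614, 0.876 and 1.34 FPKM in naive WT to 30.6, 27.6 and 29.5 in activated WT libraries (log2 fold change 3.98, limma adjusted p = 2.8e-06). It was at 29.9, 37.5 and 33.6 FPKM in knockout libraries (adjusted p against activated WT 0.436). Of 18 tested interferon-gamma response genes, 12 rose with activation and none fell, against 26.2% and 25.8% of all tested genes. Their median log2 fold change was 0.58. Among them the guanylate-binding protein genes Gbp2 (30.2 ± 1.76 to 265 ± 71.6 FPKM, log2 fold change 3.06) and Gbp3 (log2 fold change 2.08) rose most apart from Tbx21. Between knockout and activated WT limma called 0 of the 18, and their median of 0.12 stood beside 0.06 for all tested genes. Gbp2 was at 221, 241 and 247 FPKM in the knockout libraries, so library 2, with the highest Ifng, did not stand apart there.

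The receptor chains of interferon-gamma moved in opposite directions with activation. Ifngr1, the ligand-binding chain, rose from 44.6, 66.4 and 41.3 FPKM to 254, 271 and 296 (log2 fold change 2.44, limma adjusted p = 3.1e-05). Ifngr2, the signalling chain, fell from 23.6, 23.0 and 22.4 to 6.98, 9.20 and 9.19 (log2 fold change -1.35, adjusted p = 0.00027). Neither was called between knockout and activated WT (adjusted p = 0.859 and 0.587).

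The Th2 pair Il4 and Il13 differed in the groups where each was highest. Il4, which drives antibody class switching, and Il13, which acts on epithelium and macrophages, are neighbours 12.7 kb apart on chromosome 11. Il4 (ENSMUSG00000000869) spans 53602982 to 53618669 and Il13 (ENSMUSG00000020383) 53631324 to 53634702, both on the minus strand. Il4 was read at 0.552, 0.0767 and 0.235 FPKM in naive WT, at 0, 0.257 and 0.0725 in activated WT and at 0.0681, 0.0631 and 0.145 in knockout libraries. The highest Il4 value of the table was thus in a naive library, and the 3 groups overlapped. In the fit without a filter, its log2 fold change with activation was -0.20 (limma adjusted p = 0.314).

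Il13 was at 0.0306 FPKM in naive WT library 1 and listed at 0 in the other two. Its activated WT libraries had 0.672, 0.428 and 0.334 FPKM and its knockout libraries 1.95, 0.662 and 0.660. Knockout library 1 was the highest, and the other two lay within the WT range. The log2 fold change with activation was 0.54 (SE 0.23, limma adjusted p = 0.0765) and that from activated WT to knockout 0.45 (adjusted p = 0.259), or 0.18 without knockout library 1. In 5 of 18 alternatives the rise with activation was called. In the fit of all 9 libraries only the comparison of knockout with naive WT passed (log2 fold change 0.99, adjusted p = 0.00626).

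Gata3, the Th2 regulator gene, was at 14.8, 14.6 and 14.6 FPKM in naive WT, 20.9, 19.1 and 16.1 in activated WT and 19.4, 13.6 and 15.7 in knockout libraries. Its log2 fold change with activation was 0.32 (limma adjusted p = 0.0768). Il4ra, the receptor chain that interleukins 4 and 13 share, was at 48.8 to 90.2 FPKM in all 9 libraries and was not called with activation (adjusted p = 0.433). Of 8 tested response genes of STAT6, the factor below that receptor, 5 rose with activation and none fell, against 26.2% and 25.8% of all tested genes. Among the genes that rose were Nfil3 (log2 fold change 2.20), Ccr8 (2.06) and Gfi1 (2.02). Between knockout and activated WT 0 of the 8 were called.

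Il3 encodes a growth factor for mast cells and basophils (ENSMUSG00000018914, chromosome 11, minus strand, 54265303 to 54267277). It was listed at 0 in all 3 naive WT libraries and at 0.126, 0.275 and 0.233 FPKM in activated WT libraries. The knockout libraries had 0.550, 0.115 and 0.0622 FPKM, so library 1 lay above and the other two below every activated WT value. Its neighbour Csf2, the gene of the macrophage growth factor GM-CSF 15.6 kb away, was at 0.0502, 0 and 0.205 FPKM in naive WT, 0.643, 0.652 and 0.593 in activated WT and 3.88, 1.17 and 0.724 in knockout libraries. There too knockout library 1 was highest, and the difference from activated WT did not pass (log2 fold change 0.69, limma adjusted p = 0.250).

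Il17a and Il17f encode the cytokines that recruit neutrophils and are the hallmark of Th17 cells. Their bodies lie 42.6 kb apart on chromosome 1, Il17a (ENSMUSG00000025929) on the plus strand at 20730905 to 20734496 and Il17f (ENSMUSG00000041872) on the minus strand at 20777146 to 20790617, so their transcription converges. Il17a was listed at 0 in naive WT libraries 1 and 3 and at 0.532 FPKM in library 2. The activated WT libraries had 3.30, 1.26 and 3.27 FPKM and the knockout libraries 33.5, 12.5 and 2.87. Knockout libraries 1 and 2 lay above all activated WT libraries, and library 3 lay inside their range.

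The log2 fold change of Il17a was 1.59 with activation (SE 0.71, limma adjusted p = 0.0942) and 1.81 between knockout and activated WT (SE 0.71, adjusted p = 0.162), and neither passed. Leaving out knockout library 1 lowered the latter to 1.06, and leaving out library 3 raised it to 2.64 (adjusted p = 0.0924). Over all alternatives the adjusted p of this knockout difference ran from 0.0924 to 0.379. In 5 of 19 alternatives the rise with activation was called (limma adjusted p = 0.0108 to 0.211 over all of them). Against naive WT the knockout passed (log2 fold change 3.40, adjusted p = 0.00412).

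Il17f was lower in level, with the knockout libraries in the same order as for Il17a and activated WT library 2 again the lowest of the activated libraries. It was at 0.0315, 0.133 and 0.0644 FPKM in naive WT, at 1.04, 0.599 and 1.25 in activated WT and at 10.4, 6.39 and 1.59 in knockout libraries. Its log2 fold change with activation was 0.85 (SE 0.47, limma adjusted p = 0.166), called in 3 of 19 alternatives. All 3 knockout libraries lay above the 3 activated WT libraries, with library 3 close to them. The log2 fold change between knockout and activated WT was 1.63 (SE 0.47, limma adjusted p = 0.0876). It was called in 1 of 19 alternatives, the fit without knockout library 3 (2.24, adjusted p = 0.0135), and over all alternatives the adjusted p ran from 0.0135 to 0.249. The ratio of Il17a to Il17f FPKM was 2.11 to 3.17 in activated WT and 1.81 to 3.21 in knockout libraries.

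Il22 (ENSMUSG00000074695) encodes a cytokine that acts on epithelial barriers and lies on the plus strand of chromosome 10 at 118204942 to 118210047. Its level was low, and its 3 knockout libraries were close to each other. It was listed at 0 in naive WT libraries 1 and 3 and at 0.0354 FPKM in library 2, and stood at 0.128, 0.0336 and 0.0141 in activated WT and at 0.867, 1.24 and 0.792 in knockout libraries. The lowest knockout library lay above all 6 WT libraries. Its mean of 0.346 FPKM over the 9 libraries was under the filter. In the fit without a filter, the log2 fold change from activated WT to knockout was 0.89 (SE 0.083, limma adjusted p = 0.00825) and that from naive to activated WT 0.06 (adjusted p = 0.615). Combined with each of 17 other alternatives, added after the values were seen, the knockout difference was 0.79 to 2.79. It was called in 16 of them, and in the fit of the 6 activated libraries alone the adjusted p was 0.0581.

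Il22 has a near-identical copy, Iltifb, 79.6 kb from it, and reads of the 2 genes may have been divided between them. Iltifb was listed at 0 in all naive WT libraries, had 0.0271, 0 and 0.0141 FPKM in activated WT and 0.205, 0.220 and 0.328 in knockout libraries. The value of Il22 is therefore uncertain as to its copy. Both rows were higher in every knockout library than in any WT library, but with reads possibly divided between them the 2 rows are not independent.

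Il17a and Il17f had each other's profile as the nearest. Nearness was the root mean square difference between profiles over the 9 libraries, each centred and scaled to an SD of 1, among the 10430 protein-coding genes whose mean reached 1 FPKM. The distance between Il17a and Il17f was 0.17. Il23r, a receptor gene that Th17 cells need for their upkeep and that was singled out after its values were seen, was at 0.175, 0.150 and 0.377 FPKM in activated WT and at 1.42, 0.726 and 0.563 in knockout libraries.

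Interleukins 17 and 22 are also made by gamma-delta T cells and innate-like lymphocytes. Of the 6 fixed gamma-delta markers, 5 were measured, and their summed level was 5.19 to 12.8 FPKM in naive WT, 6.92 to 8.31 in activated WT and 11.5 to 17.4 in knockout libraries. The gamma chain constant gene Tcrg-C2 was higher in knockout than in activated WT cells (1.02, 0.992 and 0.674 against 3.70, 3.01 and 3.84 FPKM; log2 fold change 1.25, limma adjusted p = 0.0392), the only 1 of 4 tested markers that was called. It was called in 9 of 19 alternatives. Tcrg-C1 was at 3.37, 2.23 and 2.94 FPKM and Tcrg-C4 at 2.78, 1.17 and 1.65 in the knockout libraries. None of the 5 was at 0 in every library of a group. The 5 markers of innate-like T and lymphoid cells summed to 195 to 276 FPKM in naive WT, 134 to 158 in activated WT and 121 to 179 in knockout libraries, most of it from Il7r and Id2, which conventional T cells also express. Of 4 tested, Il1rl1, which encodes the interleukin-33 receptor, was the 1 called, at 0.324, 0.515 and 0.376 FPKM in activated WT and at 1.67, 1.78 and 3.10 in knockout libraries (log2 fold change 1.16, limma adjusted p = 0.0230, called in 14 of 18 alternatives). The part of such cells in the values of Il17a, Il17f and Il22 was not tested. Alpha-beta T cells may also transcribe the gamma constant genes.

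**Figure D3:**
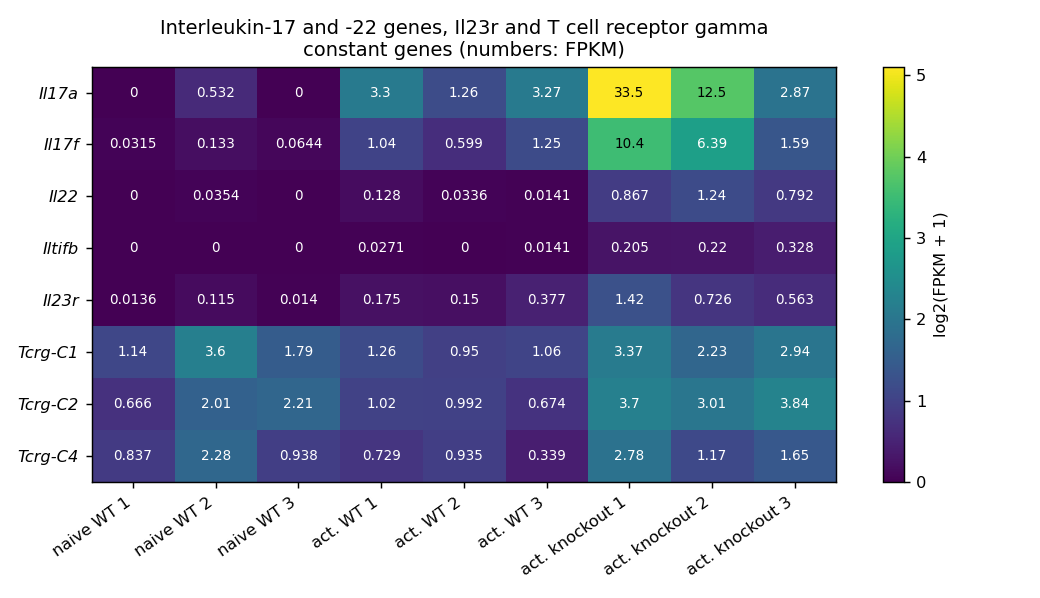
FPKM (printed in each cell) of Il17a, Il17f, Il22 and its copy Iltifb, Il23r and 3 T cell receptor gamma constant genes in the 9 libraries, with colour giving log2(FPKM + 1). Among the knockout libraries Il17a, Il17f and Il23r are highest in library 1 and lowest in library 3 (Il23r 1.42, 0.726 and 0.563 FPKM), while Il22 is at 0.792 to 1.24 FPKM in all 3.

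Il10 encodes a cytokine that limits inflammation and is made by several helper states and by regulatory T cells. It lies on the plus strand of chromosome 1 at 131019845 to 131024974 (ENSMUSG00000016529). Its naive WT libraries had 0.0277, 0.0876 and 0.0567 FPKM, its activated WT libraries 1.19, 0.527 and 0.816 and its knockout libraries 0.994, 3.14 and 1.45. Activated WT libraries lay above naive ones without overlap, and the knockout libraries overlapped them. Il10 rose with activation by a log2 fold change of 0.79 (SE 0.26, limma adjusted p = 0.0356). The call was lost in 8 of 18 alternatives, among them the fits without any 1 of naive WT libraries 1, 2 and 3 or of activated WT libraries 1 and 3 (adjusted p = 0.0705 to 0.111). The difference between knockout and activated WT was 0.58 (adjusted p = 0.220), and 0.27 without knockout library 2. The receptor gene Il10ra rose with activation from 10.6 ± 2.60 to 35.8 ± 4.85 FPKM (SD, n = 3; limma adjusted p = 0.00017).

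Foxp3, the regulatory T cell factor whose reporter was used to sort such cells away, was at 2.79, 2.73 and 2.43 FPKM in naive WT, at 1.02, 0.989 and 0.867 in activated WT and at 5.89, 2.21 and 4.31 in knockout libraries. It fell with activation (log2 fold change -0.90, limma adjusted p = 0.0157, called in 19 of 19 alternatives). It was higher in knockout than in activated WT cells (log2 fold change 1.32, limma adjusted p = 0.0351, called in 10 of 19 alternatives), and was not called between knockout and naive WT cells (0.43, adjusted p = 0.170). Library 2, with the highest Il10, had the lowest Foxp3 of the 3. The 4 regulatory T cell markers Foxp3, Ikzf2, Il2ra and Ctla4 summed to 10.1 to 11.8 FPKM in naive WT, 317 to 376 in activated WT and 330 to 490 in knockout libraries, most of it from Il2ra and Ctla4, genes that activated T cells also express. Foxp3 and Ikzf2 were the 2 called between knockout and activated WT, and Ikzf2 (log2 fold change 0.71, limma adjusted p = 0.0478) was called in 4 of 19 alternatives. Their part in the Il10 values was not tested.

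The knockout libraries differed in their mix of cytokines. In library 1, Il17a made up 58.8% and Il17f 18.3% of the summed cytokine FPKM, and Ifng 8.14%. In library 2, Ifng made up 54.1% and Il17a 19.6%. In library 3, Ifng made up 33.9%, Il21 16.0% and Il17a 14.7%. The activated WT libraries had Il17a at 12.5 to 24.8%, Ifng at 11.3 to 27.9% and Il21 at 18.6 to 33.7%. Among the 6 activated libraries, knockout library 1 had the highest Il3, Il13, Il17a and Il17f, knockout library 2 the highest Il10, Il22 and Ifng, and knockout library 3 the highest Il2. Il21 and Il4 were highest in activated WT libraries 3 and 2.

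**Figure D4:**
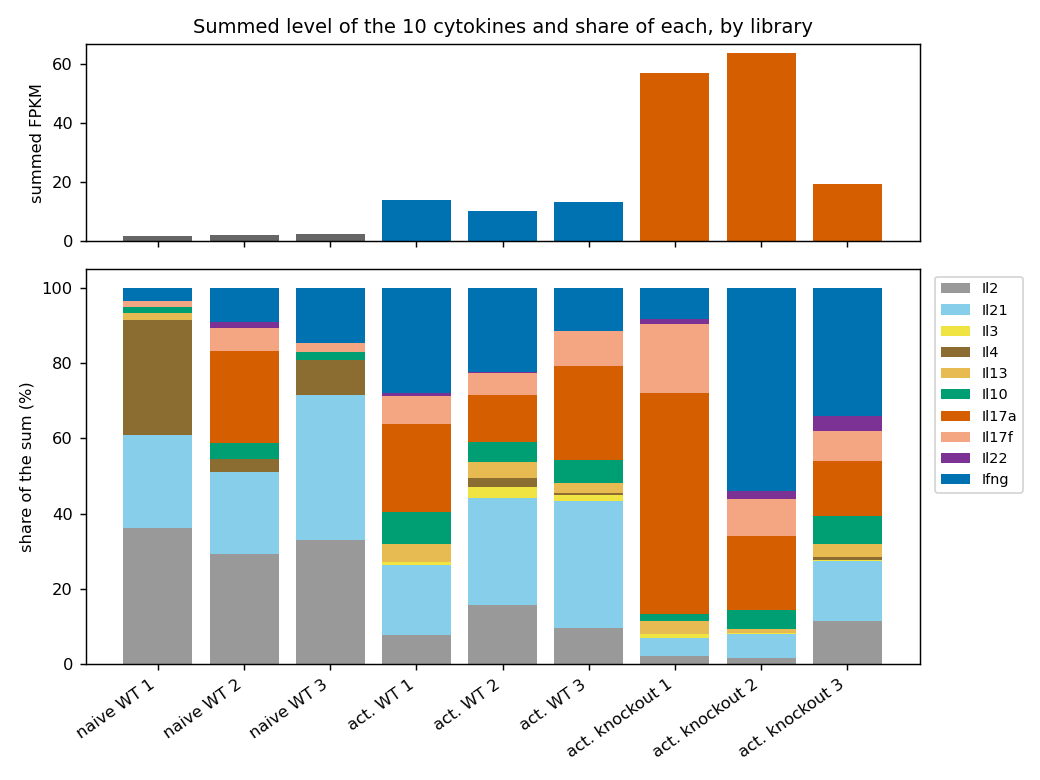
Summed FPKM of the 10 cytokine genes (top) and the share of each gene in that sum in percent (bottom), by library. The sums are 57.0, 63.7 and 19.6 FPKM in the knockout libraries, with Il17a at 58.8% in library 1 and Ifng at 54.1% in library 2.

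Leaving out 1 activated library at a time showed which differences depended on it. The knockout difference of Ifng ranged from 0.94 without knockout library 2 to 2.27 without knockout library 1. That of Il17a ranged from 1.06 without knockout library 1 to 2.64 without knockout library 3, and that of Il17f from 1.17 to 2.24 with the same libraries left out. That of Il22, in the fit without a filter, stayed between 0.79 and 0.95.

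**Figure D5:**
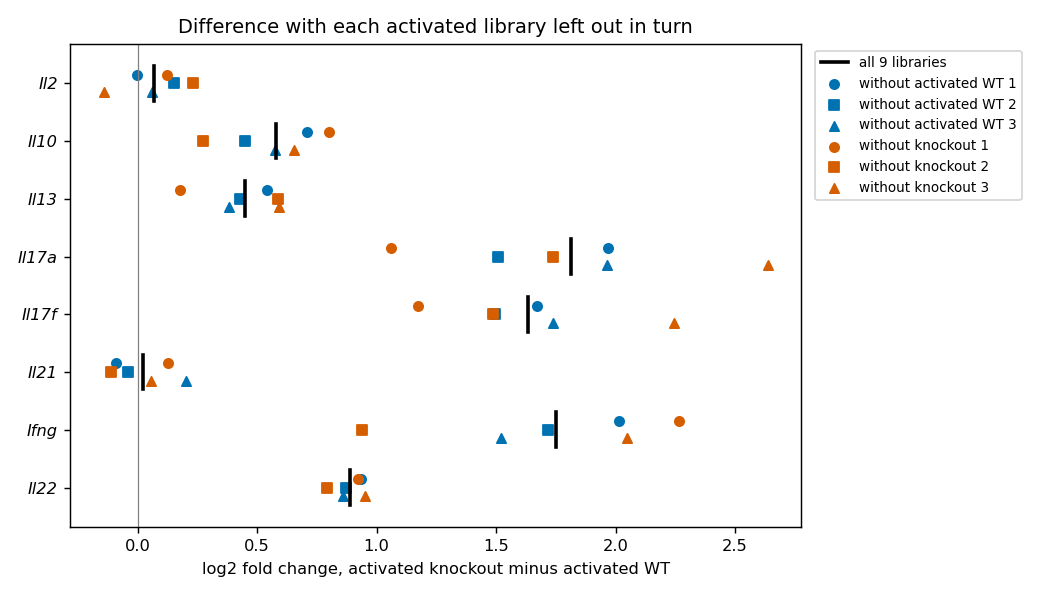
Log2 fold change of (FPKM + 1) between knockout and activated WT with all 9 libraries (black bars) and with each of the 6 activated libraries left out (symbols), for the 7 tested cytokines and, from the fit without a filter, Il22. Ifng drops to 0.94 without knockout library 2 and Il17a to 1.06 without knockout library 1, while Il22 stays between 0.79 and 0.95.

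Other cells also make these cytokines, and their markers were measured in the same libraries. Those of mast cells and basophils, which make interleukins 4 and 13, summed to 1.18, 7.67 and 3.43 FPKM in naive WT, to 6.06 to 11.0 in activated WT and to 7.94, 23.0 and 26.7 in knockout libraries over 9 of 9 markers, of which Tpsb2 was listed at 0 in knockout libraries 1 and 3. Of 5 tested, 0 were called between knockout and activated WT, with a median log2 fold change of 0.79 against 0.06 over all tested genes. Kit, their growth factor receptor gene, was at 3.65, 12.9 and 14.6 FPKM in the knockout libraries, lowest in library 1, which had the highest Il13. Both markers of CD8 T cells, which make interferon-gamma, summed to 9.48 to 41.4 FPKM in naive WT, 147 to 230 in activated WT and 220, 279 and 254 in knockout libraries, and neither was called between knockout and activated WT. With activation both were called higher, Cd8a (log2 fold change 4.09, limma adjusted p = 0.0024) and Cd8b1 (2.77, adjusted p = 0.00053). Markers of NK cells, which also make interferon-gamma, summed to 15.1 to 60.7 FPKM in naive WT, 41.0 to 71.0 in activated WT and 28.2 to 37.2 in knockout libraries over 6 of 6 markers. Most of the sum in activated libraries was the granzyme gene Gzma, which was not called between knockout and activated WT cells (log2 fold change -1.02, limma adjusted p = 0.157). Over the 4 tested NK markers the median log2 fold change was 0.29, against 0.06 over all genes tested, and Eomes was the 1 called, higher in the knockout. Of the NK markers, the defining receptor gene Ncr1 was at most 0.0584 FPKM in any activated library. Neutrophil markers were at 52.6, 630 and 106 FPKM in naive WT and at most 1.23 in every activated library, and naive WT library 2, the highest, was also the only naive library with Il17a and Il22 above 0. B cell markers summed to 52.6, 2.86 and 169 FPKM in naive WT, 126 to 160 in activated WT and 117 to 178 in knockout libraries. Those of macrophages and monocytes summed to 19.4, 186 and 52.6 FPKM in naive WT and to 3.88 to 6.41 in the activated libraries of both genotypes. Dendritic cell markers summed to at most 6.61 FPKM in any library. No marker of these last lists was called between knockout and activated WT. The part of all these cells in the cytokine values was not tested.

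Genes next to the cytokines were examined within 100 kb. Mapkapk2, a kinase gene 28.7 kb from Il10 that stabilizes cytokine transcripts, rose with activation (28.7 to 48.9 FPKM) and again in the knockout (72.2 FPKM; log2 fold change 0.55, limma adjusted p = 0.0343, called in 8 of 19 alternatives). Sept8, 53.4 kb from Il4, was higher in the knockout (1.77 to 2.97 FPKM, log2 fold change 0.53, adjusted p = 0.0482, called in 3 of 18 alternatives). Mcm3, a replication gene 12.4 kb from Il17f, rose with activation from 16.9 to 56.0 FPKM and was at 89.9 in the knockout (adjusted p = 0.0526). Rad50, which holds the control region of the Th2 locus and lies 14.8 kb from Il13, was not called with activation (10.1 and 11.3 FPKM, adjusted p = 0.213). Near Il21, Cetn4 rose from 0.0992 to 3.42 FPKM.

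Il10 and Ifng had the same nearest gene, Tnfrsf8, the gene of the activation receptor CD30, at distances of 0.14 and 0.16. Ifng itself was the third nearest to Il10, at 0.20. Il21 was nearest to Timm44, Sugt1 and Ppt1 (0.16 to 0.18), Il13 to Smap1, Pianp and Dhcr7 (0.23 to 0.27) and Il2 to Tgif1, Vps41 and Mbip (0.35 to 0.37). The nearest profiles of Il2 were thus farther from it than those of any other tested member.

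Of 23 other tested T cell cytokine and chemokine genes, 9 rose and 4 fell with activation, against 26.2% and 25.8% of all tested genes. The chemokine genes Ccl4 (log2 fold change 2.53) and Xcl1 (2.11) were up and lymphotoxin alpha, Lta, was down (-1.72). Between knockout and activated WT 2 of the 23 were higher and none lower, against 3.3% and 0.84% of all tested genes. Tnfsf11, the gene of RANKL, was at 1.95, 1.26 and 1.24 FPKM in activated WT and 6.07, 4.67 and 5.32 in knockout libraries (log2 fold change 1.36, limma adjusted p = 0.0204, called in 16 of 19 alternatives). Tgfb1, the gene of an immunosuppressive relative of the BMPs, was higher by 0.29 (adjusted p = 0.0422, called in 7 of 19 alternatives). Of 13 tested receptor genes of the members, 6 rose and 2 fell with activation and limma called 0 between knockout and activated WT.

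Of 21 tested lineage transcription factors, 14 rose and 4 fell with activation. Bhlhe40, a regulator of cytokine production, was at a log2 fold change of 5.12 and Irf4 at 2.95. Among all tested genes 26.2% rose and 25.8% fell, which is the background for each list in this paragraph. Of the 21, the 2 called in the knockout were Foxp3 and Eomes, both higher, as were 3.3% of all tested genes. Eomes was at 1.99, 1.57 and 1.92 FPKM in activated WT and at 5.15, 3.11 and 5.34 in knockout libraries (log2 fold change 0.95, limma adjusted p = 0.0323, called in 11 of 19 alternatives). Of 23 tested factors that answer receptor signals, 8 rose and 3 fell with activation, with Fosl2 up (1.48) and Fos down (-1.26), and 0 were called in the knockout. Of 13 tested response genes of STAT5, the factor below the interleukin-2 receptor, 6 rose and 3 fell, with the granzyme gene Gzmb up most (6.74), and Bcl2l1, a survival gene, was the 1 called in the knockout (log2 fold change 0.93, limma adjusted p = 0.0107, called in 17 of 19 alternatives). Of 9 tested response genes of STAT3, which acts below the receptors for interleukins 10, 21 and 22, 4 rose and 2 fell, and 0 were called in the knockout.

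Cytokine transcripts carry AU-rich elements in the 3′ untranslated region, repeats of ATTTA in the gene, which proteins such as tristetraprolin (Zfp36) bind to speed their decay. The annotated 3′ regions of the 10 members held 1 to 9 copies of ATTTA each. Their median density was 9.54 per kb, against 1.29 per kb over 16261 genes. Each member was denser than at least 84.9% of those genes, Il21 being the lowest at 3.49 per kb. The longer form TTATTTATT was found in 4 of the 10 (Il2, Il13, Il21 and Il22), against 8.09% of all genes. Of 13 tested regulators of such transcripts, 2 rose with activation and 7 fell, against 26.2% and 25.8% of all tested genes. The 2 were Zc3h12d (log2 fold change 1.61) and Arid5a (1.34). Zfp36 fell from 143 ± 4.18 to 82.9 ± 15.9 FPKM (SD, n = 3; log2 fold change -0.79, limma adjusted p = 0.005), and was at 67.2, 52.9 and 45.5 FPKM in the knockout libraries (adjusted p against activated WT 0.0871). Limma called 0 of the 13 between knockout and activated WT.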

How the data were processed

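The 9 RNA sequencing libraries are of sorted mouse CD4+ T cells. The authors deposited their FPKM values in 1 table. Per the submitters' processing notes, TopHat2, Cufflinks and Cuffdiff were used with build GRCm38. Their versions, the annotation and the strand setting are not given here, and the depth is unknown. Groups were taken from the sample labels. From the deposited FPKM, log2(FPKM + 1) was computed and tested with limma 3.58.1 in R 4.3.3 (intensity trend, group means, two-sided, Benjamini-Hochberg over the 15126 genes whose mean reached 0.5 FPKM), and the procedure was tested on simulated data. Alternatives changed the pseudocount (0.1, 0.5), filter, scaling, weights, trend, block and libraries. Positions came from GENCODE on GRCm38, and promoter sequences from RefSeq.

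All 10 members were described. From each context list, up to 3 called genes with the largest change and a mean of at least 5 FPKM were named per comparison, with receptors, neighbours within 100 kb and the 3 nearest profiles. Genes outside the rule (Il23r, Gata3, Foxp3, Eomes and single marker genes) were chosen after their values were seen. Members and lists were chosen with earlier results of these data known. 1 gene that the rule names is not reported here.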

Additional observations from a re-analysis of the deposited data

How the results depend on the processing

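Settings were changed one at a time, and one of them was the replicate block. The count of cytokines called higher with activation of WT cells was 2 of 7 as reported. It was 1 with no filter on low values, 1 of 4 with a filter at 2 FPKM, 1 with quantile normalization, 1 with the replicate block, 6 with a pseudocount of 0.1, 5 with one of 0.5, 5 with array quality weights and 7 when only the 6 WT libraries were fitted. Leaving out 1 library gave 1 to 5, with 4 without knockout library 1 and 5 without knockout library 3. Apart from the fits as reported and with no filter, the shares of all genes called higher are not given beside these counts. The count for knockout against activated WT was 0 as reported, 1 with no filter (Il22) and 0 to 1 with a library left out, the 1 being Il17f without knockout library 3. The sign of 2 small knockout differences changed. That of Il21, 0.02 as reported, was -0.035 with median-of-ratios scaling, -0.034 with quantile normalization and -0.11 to 0.20 with a library left out. That of Il2, 0.07 as reported, was -0.14 to 0.23 with a library left out. The cause of these shifts was not tested. No other difference of a tested member changed sign, and no count of members called lower left 0. The knockout against naive WT count stayed at 6 or 7 with a library left out. Deviations of same-numbered libraries from their group means correlated at 0.0027 to 0.054, and those of differently numbered libraries at -0.068 to 0.038. The correlations were weak, and they do not settle whether replicate numbers pair the libraries. With the replicate block, 58 of all tested genes were called between knockout and activated WT, against 626 without it, 306 with median-of-ratios scaling, 324 with quantile normalization, 3851 with weights, 416 with no filter, 92 with only the 6 activated libraries and 64 to 1037 with a library left out. FPKM hide the depth, so the precision of values under 1 FPKM is unknown.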
